A study of Mus musculus with 5 samples.

Results

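Potassium channel genes were followed over the 5 single-colour arrays of a mouse study of Linc1405, a long non-coding RNA, in cells differentiated from embryonic stem cells (ESCs) towards heart muscle. Members were all genes whose symbol begins with Kcn and a further letter from a to v, whatever the case, without Kcnj2 and Kcnj5. This rule found 88 genes on 103 probes among 17742 named genes, and each gene is given by its brightest probe. It uses names only, so it also takes in auxiliary subunits and 1 non-coding RNA, Kcnq1ot1. The 5 groups held 1 array each: undifferentiated ESCs at day 0, Linc1405 knockdown and control cells at day 4 (mesoderm in the labels), and Linc1405 knockdown and control cells at day 10 (cardiomyocytes in the labels). The ESC line was 46C, per the labels, which name the knockdown samples MES_1405KIpA and CM_1405KIpA, and how the knockdown was made and whether the line was 1 clone are not given in the sources used here. No probe used here carried the name Linc1405, and the depth of its knockdown was not checked. ESCs grew on feeder cells in 15% serum with LIF, a cytokine that keeps them undifferentiated, at 1000 U/ml, and the feeders were removed before harvest. Both day 4 cultures had Bmp4 at 0.2 ng/ml, Activin A at 5 ng/ml and VEGF at 5 ng/ml, and both day 10 cultures had bFGF at 10 ng/ml, VEGF at 5 ng/ml and FGF10 at 25 ng/ml.

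Potassium channels let potassium ions leave a cell and so set the resting potential and end the action potential. Voltage-gated channels open on depolarisation, inward rectifiers and 2-pore channels hold the resting potential, and calcium-activated channels couple it to intracellular calcium. Auxiliary subunits bind the pore-forming subunits and change their gating or transport to the membrane. In the heart, separate channels carry the transient outward, delayed rectifier, inward rectifier and ATP-sensitive currents that shape each beat.

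Levels are log2 intensities after quantile normalization, with a floor of 100 on the linear scale (6.64 in log2). Differences are between 2 arrays on the log2 scale. A gene was counted as higher or lower where the difference was at least 2-fold and the brighter array reached the 50th percentile of all probes (9.16 in log2), called the filter below. It could thus be counted with its dimmer array below the filter. Each group being a single array, cultures gave no spread to test against, and no p-value was computed. The only error estimate comes from genes with several probes: the SD of 1 probe's log2 difference, estimated between such probes, was 0.208 between the 2 lines at day 4 and 0.272 between them at day 10. It was 0.61 for control day 4 against ESCs and 0.741 for control day 10 against control day 4. Different probes bind with different strength, so levels are compared between arrays and not between genes.

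The labelled stages were checked on marker genes. Pluripotency markers, 7 measured of 8, summed to a normalized intensity of 12178 in control day 4 cells, against 397882 in ESCs, and all 7 were at least 2-fold lower at day 4. Of 6 mesoderm markers, 5 were higher in control day 4 cells than in ESCs, with Eomes as the exception. All 10 measured heart muscle markers were higher in control day 10 cells than in control day 4 cells, with sums of 643494 and 12574. Day 10 cultures also held signal for fibroblast matrix genes (sum 178009 in knockdown and 172317 in control cells), endothelial genes (74410 and 71130) and liver-type endoderm genes (26402 and 181088), so a channel signal at day 10 cannot be assigned to heart muscle cells from these arrays. In such mixed cultures fewer cells of a type and less RNA per cell cannot be told apart.

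Of the 88 members, 33 (37.5%) passed the filter in at least 1 array, beside 68.7% of all named genes. At the other end, 10 members (11.4%, beside 8.13% of all genes) lay at the floor in all 5 arrays: Kcnh8, Kcnip1, Kcnj9, Kcnj13, Kcnk18, Kcnmb1, Kcnmb3, Kcns1, Kcns3 and Kcnv1. The other 45 lay between. The number past the filter was 22 in ESCs, 20 in knockdown and 19 in control cells at day 4, and 24 in knockdown and 20 in control cells at day 10. Of all named genes, 58.9% passed it in ESCs, 58.7% in knockdown and 58.8% in control cells at day 4, and 59.4% in each line at day 10.

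Members past the filter were also counted by class, beside the 68.7% of all named genes past it in at least 1 array. Probes differ in binding strength and the classes are small, so a difference between classes was not tested. Voltage-gated pore subunits of the Shaker type had 6 of 15 past the filter in at least 1 array, and the EAG, ERG and ELK family (Kcnh) had 6 of 8. The KCNQ channels, which include the subunits of the neuronal M current and of the slow delayed rectifier, had 2 of 3. The 2-pore channels (Kcnk) had 5 of 13, inward rectifiers (Kcnj) 2 of 13, and calcium- or sodium-activated channels 3 of 8. Auxiliary subunits had 9 of 17. The silent voltage-gated subunits (Kcnf, Kcng, Kcns and Kcnv), which form channels only together with other subunits, had 0 of 10, and Kcng4, Kcnv2 and Kcng2, the brightest of them, stayed between 7.78 and 8.86 on all 5 arrays. Kcnq1ot1, the imprinted non-coding RNA of the Kcnq1 locus, stayed between 6.64 and 7.19.

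**Figure D1:**
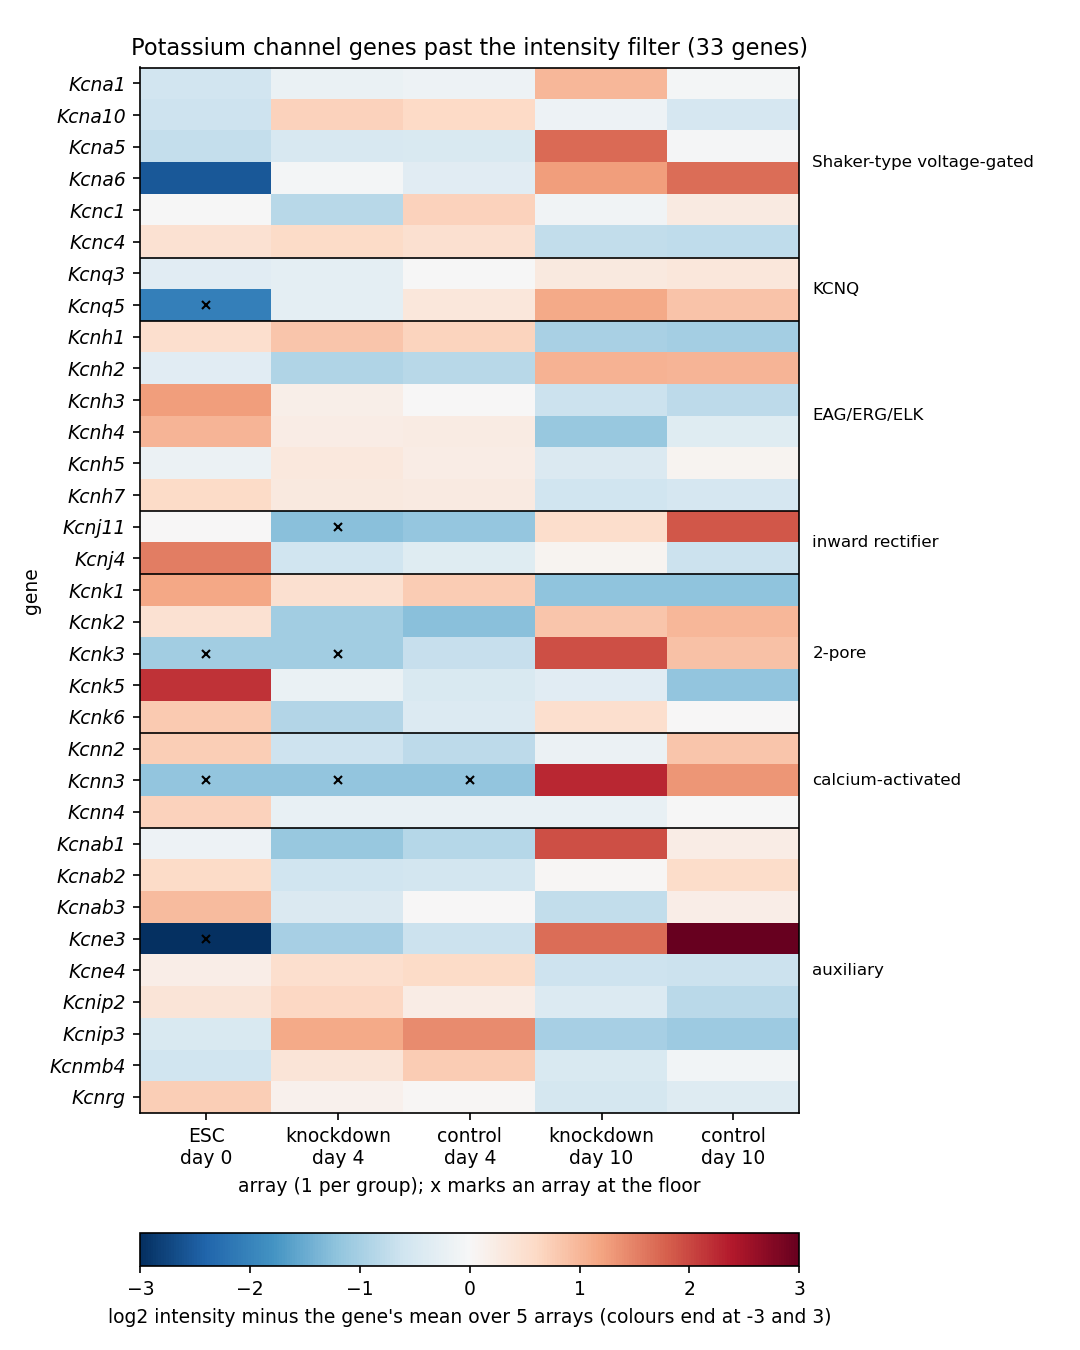
Log2 intensity of the 33 members past the filter in at least 1 array (rows, by class) on the 5 arrays (columns), each shown as the difference from that gene's own mean, with colours ending at -3 and 3. Crosses mark arrays at the floor. Kcne3, Kcnn3 and Kcnk3 are red at day 10 and at the floor in ESCs, and Kcnk5 is red in ESCs alone.

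At day 4, control cells had lower levels than ESCs for 7 members and higher levels for 5, of 25 past the filter (28.0% and 20.0%). Over all genes past the filter, 13.9% were lower and 12.8% higher. The lower members were 3 of the 4 2-pore channels past the filter (Kcnk5, Kcnk2 and Kcnk6), Kcnj4, Kcnn2, Kcnh3 and Kcnab2. With values as deposited, Kcnab2 (-0.97), Kcnh3 (-0.94) and Kcnk6 (-0.89) came below 2-fold. The higher members were Kcne3, Kcna6, Kcnip3, Kcnmb4 and Kcna10, of which 3 encode auxiliary subunits. Markers of other cell types also differed between these arrays. Feeder fibroblast markers, 5 measured of 6, summed to 1526 in control day 4 cells and 29024 in ESCs. The 2 past the filter were both lower, Dcn at 8.94 and 13.80 and Postn at 9.25 and 13.77. Below the filter, Lum was at the floor and at 9.15, Col1a1 at 7.84 and 7.29, and Col3a1 at the floor on both arrays. Neural markers summed to 10131 and 37531, with 0 of 7 higher and 4 lower. Smooth muscle and pericyte markers summed to 16507 and 58031, with 1 of 6 higher and 2 lower. The higher one was Rgs5, at 11.48 in control day 4 cells and 7.08 in ESCs, and the lower ones included Acta2 (-4.43). Endothelial markers summed to 31116 and 9348, with 3 of 7 higher, among them Kdr (5.76), and 1 lower. Liver-type endoderm markers summed to 9212 and 4768, with 1 of 5 higher, Ttr (4.73), and 1 lower. Fibroblast markers at the floor numbered 2 in control day 4 cells and 1 in ESCs, neural markers 0 in both, and the part of these cell types in the channel differences was not tested.

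Kcnk5, an acid-sensitive 2-pore channel, was at 12.84 in ESCs, 10.47 in knockdown and 10.21 in control cells at day 4, and 10.32 in knockdown and 9.49 in control cells at day 10. All 4 differentiated cultures lay below ESCs, and control day 4 cells were 6.19-fold lower (-2.63). Kcnj4, a strong inward rectifier, was at 12.04 in ESCs, 9.90 and 10.15 in knockdown and control cells at day 4, and 10.59 and 9.86 in knockdown and control cells at day 10. It too was highest in ESCs, and control day 4 cells differed by -1.88. Kcnh3, a member of the ELK subfamily known from brain, was at 11.16 in ESCs, 10.09 and 9.91 in knockdown and control cells at day 4, and 9.25 and 9.12 in knockdown and control cells at day 10. It was thus lower at each later stage in both lines, with a difference of -1.25 for control day 4 against ESCs. In all, 11 of the 33 members past the filter (33.3%, beside 27.4% of all such genes) had their highest value in ESCs.

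Kcnip3, a calcium-binding subunit of transient outward channels that is also described as a transcriptional repressor, was at 10.33 in ESCs, 11.93 and 12.20 in knockdown and control cells at day 4, and 9.79 and 9.70 in knockdown and control cells at day 10. Both day 4 arrays lay above the other 3. Control day 4 cells were 3.66-fold higher than ESCs (1.87), and control day 10 cells were 5.66-fold lower than control day 4 cells. Kcnmb4, an auxiliary subunit of the large-conductance calcium-activated channel, was at 9.66 in ESCs, 10.64 and 11.02 in knockdown and control cells at day 4, and 9.81 and 10.17 in knockdown and control cells at day 10. Kcna10, a Shaker-type channel gated by cyclic nucleotides, was at 10.61 in ESCs, 11.93 and 11.85 in knockdown and control cells at day 4, and 11.08 and 10.73 in knockdown and control cells at day 10. Kcnmb4 and Kcna10 were likewise highest on the day 4 arrays, but their day 10 arrays lay above ESCs where those of Kcnip3 lay below, with differences of 1.37 and 1.24 for control day 4 against ESCs. The pore subunit that Kcnmb4 accompanies, Kcnma1, did not pass the filter on any array (7.70 to 8.52). Both day 4 arrays lay above the other 3 for 7 of the 33 members (21.2%, beside 26% of all genes past the filter).

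The opposite order, with both day 4 arrays below the other 3, was seen in 7 of the 33 members (21.2%, beside 17.9% of all genes past the filter): Kcnk2, Kcnk6, Kcnn2, Kcnh2, Kcnj11, Kcnab1 and Kcnab2. The summed feeder fibroblast markers had this order too, at 29024 in ESCs, 1220 and 1526 in knockdown and control cells at day 4, and 178009 and 172317 in knockdown and control cells at day 10. Within that list Col1a1 did not, at 7.29 in ESCs and 8.14 and 7.84 in knockdown and control cells at day 4. Col3a1 was at the floor on these 3 arrays. Smooth muscle and pericyte sums also had this order, at 58031, then 21383 and 16507, then 320861 and 308564. So did neural sums, at 37531, then 7420 and 10131, then 18305 and 12954. The part of these cell types was not tested. Kcnk2, a mechanically gated 2-pore channel, was at 13.86 in ESCs, 12.37 and 12.15 in knockdown and control cells at day 4, and 14.25 and 14.39 in knockdown and control cells at day 10. The difference was -1.70 for control day 4 against ESCs and 2.24 for control day 10 against control day 4, and these comparisons share the control day 4 array. The knockdown day 4 array, which neither comparison uses, stood close to the control one. Kcnk2 is listed here because both day 4 arrays lay below the other 3, so the low knockdown value is no separate evidence. Kcnk6, a related 2-pore channel, was at 11.05 in ESCs, 9.40 and 9.86 in knockdown and control cells at day 4, and 10.78 and 10.27 in knockdown and control cells at day 10. Kcnab2, a cytoplasmic beta subunit of Shaker-type channels, was at 10.03 in ESCs, 8.86 and 8.89 in knockdown and control cells at day 4, and 9.47 and 9.99 in knockdown and control cells at day 10.

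At day 10, control cells had higher levels than at day 4 for 8 members and lower levels for 7, of 25 past the filter (32.0% and 28.0%, beside 19.1% and 19.4% of all genes past the filter). Higher were Kcne3, Kcnj11, Kcnk2, Kcna6, Kcnh2, Kcnn2, Kcnab2 and Kcnab1. Lower were Kcnip3, Kcnk1, Kcnh1, Kcnc4, Kcne4, Kcna10 and Kcnip2. The split depended on scaling: with values as deposited it was 4 higher and 17 lower, on arrays where the median of all genes differed by -0.72, and with those differences centred on that median it was 5 higher and 8 lower. Kcnab1 and Kcnab2 came below 2-fold under all 3 other scalings, at 0.15 and 0.27 with values as deposited, 0.87 and 0.99 with these centred, and 0.85 and 0.97 with each array scaled to its 75th percentile.

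Kcne3, an auxiliary subunit that keeps the Kcnq1 channel open in epithelia, was at the floor of 6.64 in ESCs, at 8.85 in knockdown and 9.19 in control cells at day 4, and at 11.53 in knockdown and 12.99 in control cells at day 10. It stood higher at each later stage in both lines. Control day 4 cells were at least 5.84-fold higher than ESCs, and control day 10 cells were 14-fold higher than control day 4 cells (3.80). Its partner Kcnq1, the pore of the slow delayed rectifier, was at 7.68 in ESCs, 7.80 and 7.80 in knockdown and control cells at day 4, and 8.72 and 8.87 in knockdown and control cells at day 10. The 2 day 10 arrays of Kcnq1 were the higher ones, with a difference of 1.07 for control day 10 against control day 4, but all 5 lay below the filter. Kcne1, the subunit that gives Kcnq1 its slow cardiac gating, was at or within 0.02 of the floor on all 5 arrays.

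Kcnj11, the pore of the ATP-sensitive potassium channel, was at 7.91 in ESCs, 6.64 and 6.73 in knockdown and control cells at day 4, and 8.41 and 9.75 in knockdown and control cells at day 10. Both day 4 arrays were at or near the floor, and control day 10 cells were 8.12-fold higher than control day 4 cells (3.02). The second Kcnj11 probe lay at the floor on all 5 arrays, so the values rest on 1 of 2 probes. The call ended with values as deposited (2.15) and with the mean of both probes (1.51), in each case because the brighter array fell below the filter. Kcnj8, the other pore of ATP-sensitive channels, known from vessel walls, was below the filter on all 5 arrays (7.79 to 8.85). Kcna6, a Shaker-type delayed rectifier, was at 7.29 in ESCs, 9.78 and 9.48 in knockdown and control cells at day 4, and 11.08 and 11.51 in knockdown and control cells at day 10. Like Kcne3 it stood higher at each later stage in both lines, and its second probe gave 2.17 for control day 10 against control day 4, beside 2.03 on the first. Kcnn3, a small-conductance calcium-activated channel, was at the floor in ESCs and in both day 4 cultures, and at 10.10 in knockdown and 9.15 in control cells at day 10. The control day 10 value was just below the filter, the day 10 values were at least 10.9-fold above day 4 in knockdown cells and at least 5.68-fold in control cells, and the second Kcnn3 probe lay at the floor on all 5 arrays.

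Kcnh2, the ERG channel of the rapid delayed rectifier in heart, was at 10.31 in ESCs, 9.75 and 9.83 in knockdown and control cells at day 4, and 11.68 and 11.68 in knockdown and control cells at day 10. Both lines were thus at 1 level at day 10, above ESCs and day 4, and the difference in control cells was 1.85. Kcnn2, a small-conductance calcium-activated channel of atrial muscle and neurons, was at 10.54 in ESCs, 9.17 and 9.02 in knockdown and control cells at day 4, and 9.63 and 10.64 in knockdown and control cells at day 10. Control day 10 cells differed from control day 4 cells by 1.61, and by 0.82 with values as deposited. Kcnn4, the intermediate-conductance member of this family, was at 10.29 in ESCs and between 9.38 and 9.60 on the other 4 arrays.

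Among the lower members, Kcnk1, a weakly rectifying 2-pore channel, was at 13.44 in ESCs, 12.75 and 13.03 in knockdown and control cells at day 4, and 11.08 and 11.08 in knockdown and control cells at day 10. Kcnh1, the founding EAG channel, was at 9.22 in ESCs, 9.55 and 9.38 in knockdown and control cells at day 4, and 7.75 and 7.71 in knockdown and control cells at day 10. Both genes had their lowest 2 values at day 10, with differences of -1.96 and -1.68 in control cells. Kcnc4, a fast Shaker-type channel, was at 10.14 in ESCs, 10.27 and 10.17 in knockdown and control cells at day 4, and 8.95 and 8.93 in knockdown and control cells at day 10. Kcne4, which inhibits Kcnq1 channels, was at 10.93 in ESCs, 11.24 and 11.32 in knockdown and control cells at day 4, and 10.12 and 10.10 in knockdown and control cells at day 10. Kcnip2, the subunit of the cardiac transient outward channel, was at 9.53 in ESCs, 9.76 and 9.36 in knockdown and control cells at day 4, and 8.72 and 8.32 in knockdown and control cells at day 10. For Kcnc4, Kcne4 and Kcnip2 the differences between control day 10 and control day 4 were -1.24, -1.21 and -1.04. Kcnh7, another ERG channel, was at 11.40 in ESCs, 11.11 and 11.09 in knockdown and control cells at day 4, and 10.22 and 10.31 in knockdown and control cells at day 10. Its difference between control day 10 and control day 4 was -0.78, less than 2-fold.

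**Figure D2:**
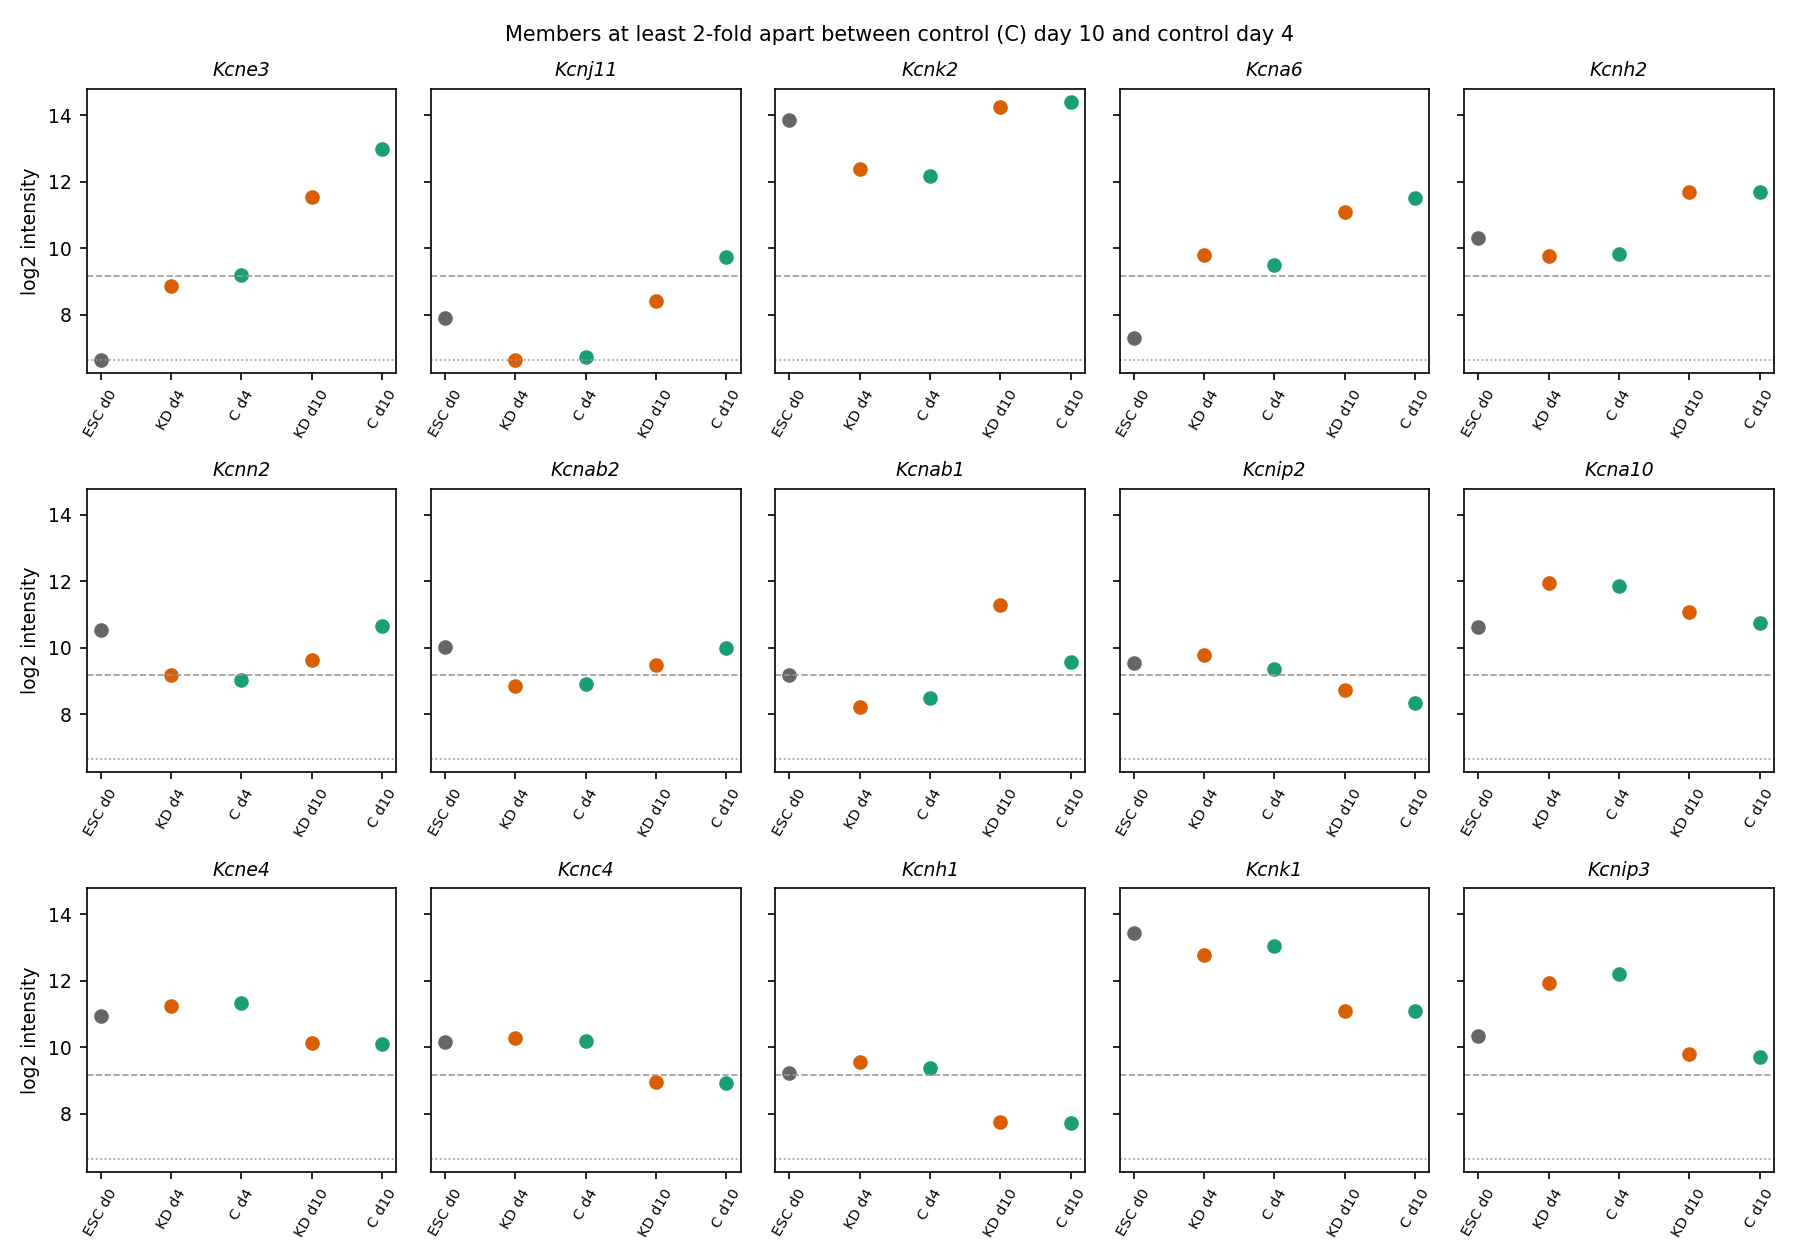
Log2 intensity (y axis) of the 15 members at least 2-fold apart between control day 10 and control day 4, on the 5 arrays (x axis: ESC, knockdown KD and control C by day), ordered from the highest difference to the lowest. Each point is 1 array, the dashed line is the filter at 9.16 and the dotted line the floor at 6.64, and levels are comparable within a panel only. Kcne3 reaches 12.99 in control cells at day 10 and is at the floor in ESCs, and Kcnip3 is highest at day 4.

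Other channels of known cardiac currents gave little signal. Kcnd2 and Kcnd3, the pores of the transient outward current, stayed below the filter on all 5 arrays (6.64 to 7.78 and 6.74 to 8.01), as did Kcna4 (6.85 to 8.54), Kcnj3 (6.64 to 7.53), a pore of the acetylcholine-activated atrial channel, Kcnj12 (7.21 to 9.05), a cardiac inward rectifier, and Kcne2 (6.64 to 8.06). Below the filter, Kcna4 was at 7.39 in knockdown and 8.54 in control cells at day 10, against 6.94 and 6.85 in knockdown and control cells at day 4. Kcnd2 was at 6.78 in knockdown and 7.78 in control cells at day 10, against 6.92 in knockdown cells and the floor in control cells at day 4. In both genes the control day 10 array was the highest of the 5, but signal this low gives no firm difference.

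At day 4, few potassium channel genes were 2-fold apart between Linc1405 knockdown and control cells. Among the 22 members that passed the filter, 0 were 2-fold higher in knockdown cells and 1 was lower (4.55%), beside 0.804% and 1.47% of all genes past the filter. Several others lay below 2-fold but beyond the probe SD of 0.208. Among them were Kcnk6 (-0.46), Kcnmb4 (-0.38), Kcne3 (-0.34), Kcnip2 (0.40) and Kcna6 (0.30). The median difference of those 22 members was 0.05, beside 0.008 for all genes past the filter. Signed differences cancel in such a median, which was 0.02 at day 10, where 7 of 25 members were called. The median of all 88 members was 0 in every comparison, also where many members were called, so neither median shows a likeness of the lines. The 1 lower gene was Kcnc1, a fast delayed rectifier of rapidly firing neurons. It was at 8.68 in ESCs, 7.87 in knockdown and 9.39 in control cells at day 4, and 8.59 in knockdown and 8.98 in control cells at day 10. Only the control day 4 array passed the filter, the knockdown array was 2.88-fold lower (-1.52), and Kcnc1 had 1 probe. Below the filter, Kcnk16, a 2-pore channel known from the pancreas, was at 6.65 in knockdown and 8.32 in control cells, and Kcnq5, a subunit of the M current, at 8.41 and 9.05. Both probes were dim on these arrays and neither was counted. Of 6 mesoderm markers 1 was at least 2-fold lower in knockdown cells at day 4, with sums of 61624 in knockdown and 92824 in control cells. Neural markers had 1 of 6 past the filter lower, Stmn2 (-1.18), with sums of 7420 and 10131, endothelial markers 1 of 7, Tie1 (-1.15), with sums of 18361 and 31116, and liver-type endoderm markers 1 of 5, with sums of 5852 and 9212. Smooth muscle and pericyte markers had 1 of 6 higher, Pdgfrb (1.56), with sums of 21383 and 16507. The mesoderm, neural, endothelial and liver-type lists had 0 markers at the floor in either culture, and the part of these cell types was not tested.

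At day 10, knockdown cells differed from control cells in 7 of 25 members past the filter, 4 higher (16.0%) and 3 lower (12.0%). Over all genes past the filter 2.50% were higher and 3.61% lower. Higher in knockdown cells were Kcnab1, Kcna5, Kcna1 and Kcnk3, and lower were Kcne3, Kcnj11 and Kcnn2. Of these, Kcna5, Kcna1, Kcnk3 and Kcnj11 passed the filter only on the array where they were higher. Members also passed the filter in any array less often than all genes (37.5% beside 68.7%). The part of this in the shares called was not tested. With values as deposited the counts were 8 higher and 0 lower, and with those values centred on the median of all genes, 6 higher and 1 lower. Kcnj11 and Kcnn2 lost their call as deposited (-1.07, with the brighter array below that setting's filter, and -0.63) and when centred (-1.44, again below that filter, and -0.999), and Kcne3 lost it only as deposited (-0.90). None of the 7 changed sign under these settings.

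The higher members were 2 of the 4 Shaker-type channels past the filter, 1 beta subunit and 1 2-pore channel. Kcnab1, a cytoplasmic beta subunit that speeds the closing of Shaker-type channels, was at 9.18 in ESCs, 8.21 and 8.49 in knockdown and control cells at day 4, and 11.28 and 9.56 in knockdown and control cells at day 10. Its knockdown day 10 array was the highest of the 5, 3.31-fold above control (1.73). Kcna5, the pore of the ultrarapid delayed rectifier of atrial muscle, also found in vascular smooth muscle, was at 7.12 in ESCs, 7.35 and 7.37 in knockdown and control cells at day 4, and 9.53 and 7.80 in knockdown and control cells at day 10. The knockdown day 10 array alone passed the filter, 3.30-fold above control (1.72). The second Kcna5 probe showed the same order, at 8.12 in knockdown cells at day 10 and at the floor on the other 4 arrays, a difference of at least 1.48.

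Kcna1, an axonal channel of the same family, was at 8.33 in ESCs, 8.71 and 8.74 in knockdown and control cells at day 4, and 9.89 and 8.83 in knockdown and control cells at day 10. The knockdown day 10 array was again the only one past the filter, with a difference of 1.06 from control. Kcnk3, an acid-sensitive 2-pore channel of heart and smooth muscle, was at the floor in ESCs and in knockdown cells at day 4, at 7.0 in control cells at day 4, and at 9.63 and 8.58 in knockdown and control cells at day 10. Both day 10 arrays stood above the earlier ones, and the knockdown array was 2.07-fold above control (1.05). Kcna5, Kcna1 and Kcna6 follow each other directly among the protein-coding genes of the GRCm38.p6 annotation. Their day 10 differences were 1.72, 1.06 and -0.44, and Kcna6 was not counted as different. With values as deposited its sign turned, at an intensity of 2156 in knockdown and 2053 in control cells.

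**Figure D3:**
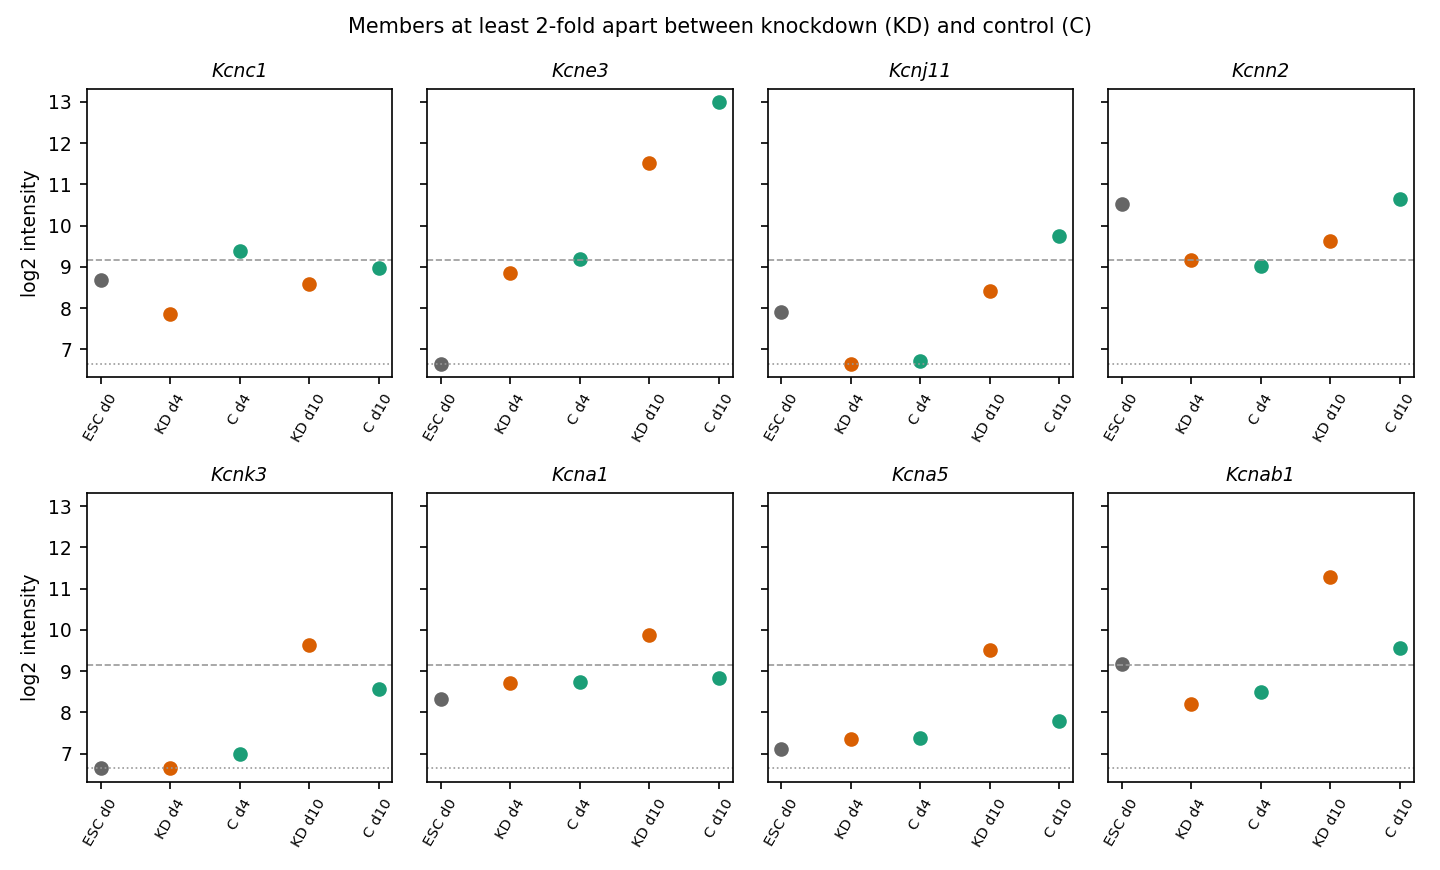
Log2 intensity (y axis) of the 8 members at least 2-fold apart between knockdown (KD, orange) and control (C, green) cells at day 4 (Kcnc1) or day 10 (the other 7), on the 5 arrays (x axis), with ESCs in grey. Each point is 1 array, the dashed line is the filter at 9.16 and the dotted line the floor at 6.64, and levels are comparable within a panel only. At day 10 Kcnab1 is at 11.28 in knockdown and 9.56 in control cells, and Kcne3 at 11.53 and 12.99.

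The lower members were all counted as higher at day 10 than at day 4 in control cells, and of the 3 only Kcne3 was so counted in knockdown cells. There Kcnj11 was also at least 1.77 higher at day 10 but stayed below the filter, and Kcnn2 was 0.46 higher. Kcne3, described above, was at 11.53 in knockdown and 12.99 in control cells at day 10, 2.76-fold lower (-1.47). Kcnj11 was at 8.41 in knockdown and 9.75 in control cells, 2.52-fold lower (-1.33) on its 1 responding probe. Its neighbour Abcc8, which encodes a regulatory subunit of ATP-sensitive channels, was at 16.95 in knockdown and 16.71 in control cells (0.24). Kcnn2 was at 9.63 in knockdown and 10.64 in control cells, 2.01-fold lower (-1.01), at the limit of the 2-fold rule. For these genes the control day 10 array enters both the comparison with knockdown and that with day 4, so the differences of 3.80, 3.02 and 1.61 over time and of -1.47, -1.33 and -1.01 between lines are not independent.

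Markers of other cell types differed between the same day 10 arrays. Heart muscle markers were at least 2-fold lower in 7 of 10 and higher in 1, Tnnt2, with sums of 326717 in knockdown and 643494 in control cells and 0 of the 10 at the floor in either. Liver-type endoderm markers were lower in 7 of 8, with sums of 26402 and 181088, also with 0 at the floor. Smooth muscle and pericyte markers were higher in 1 of 7 past the filter, Rgs5, with sums of 320861 and 308564, and of the 8 measured only Cnn1 was at the floor in knockdown cells. Neural markers were higher in 1 of 5 past the filter, Stmn2, with sums of 18305 and 12954 and with Pax6 and Neurod1 at the floor in knockdown cells. Endothelial markers were 2-fold apart in 0 of 8. The part of these cell types in the channel differences was not tested. The knockdown day 10 array also had 1050 probes at or below 0 as deposited, against 3 on the control day 10 array, and its part was not tested either.

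Many bright channel probes had nearly the same level in both lines at day 10. Kcnk2 differed by -0.15, Kcnk1 by 0.00, Kcnh2 by 0.00, Kcnh7 by -0.09, Kcne4 by 0.02 and Kcnip3 by 0.09, each within the probe SD of 0.272. That SD holds probe error only and not the spread between cultures. A further 8 members past the filter lay beyond it and below 2-fold, with differences of 0.95 for Kcnn3, 0.82 for Kcnk5, 0.73 for Kcnj4, 0.51 for Kcnk6, 0.35 for Kcna10, -0.36 for Kcnmb4, -0.44 for Kcna6 and -0.52 for Kcnab2. Kcnq3 and Kcnq5, subunits of the M current, were at 9.37 and 9.83 in knockdown cells and 9.42 and 9.56 in control cells. Kcnma1 was at 7.70 in knockdown and 8.02 in control cells, below the filter.

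The course from day 4 to day 10 was set side by side in the 2 lines, which share no array. In knockdown cells, where 29 members passed the filter, 11 had day 10 levels 2-fold or more above day 4 (37.9%, beside 18.7% of all genes past the filter) and 6 were lower (20.7%, beside 18.1%). Of the 15 members called in control cells, 11 (73.3%) were called the same way in knockdown cells and 0 had the opposite sign, and the share over all 4396 genes called in control cells was 74.6%. The 11 made up 11 of the 17 called in knockdown cells. Across the 23 members past the filter in both lines, the differences of the 2 lines had a Pearson r of 0.90, beside 0.92 across all genes past it in both. Genes are not independent replicates, and all arrays were normalized together.

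Members that left the common course did so on either side of it. Kcnab1 was 3.07 higher at day 10 in knockdown cells and 1.06 in control cells, Kcna5 2.17 and 0.43, Kcna1 1.18 and 0.09, and Kcnk3 at least 2.98 and 1.58. Kcnk6 (1.39 and 0.42) and Kcnq5 (1.42 and 0.52) were called in knockdown cells only, since in control cells they stayed below 2-fold. With values as deposited the knockdown differences of Kcnk6 (0.99), Kcnq5 (0.84), Kcna6 (0.95) and Kcna1 (0.61) came below 2-fold, and that of Kcna1 also did with scaling to the 75th percentile (0.99). Kcne3 was 2.68 higher in knockdown cells and 3.80 in control cells, Kcnj11 at least 1.77 and 3.02, and Kcnn2 0.46 and 1.61. The members lower at day 10 lay close together in both lines, with Kcnip3 4.41-fold and 5.66-fold lower, Kcnk1 at -1.68 and -1.96, Kcnh1 at -1.80 and -1.68, Kcnc4 at -1.31 and -1.24 and Kcne4 at -1.12 and -1.21. These differences use the same day 10 arrays as the comparison between lines and add no separate evidence to it.

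**Figure D4:**
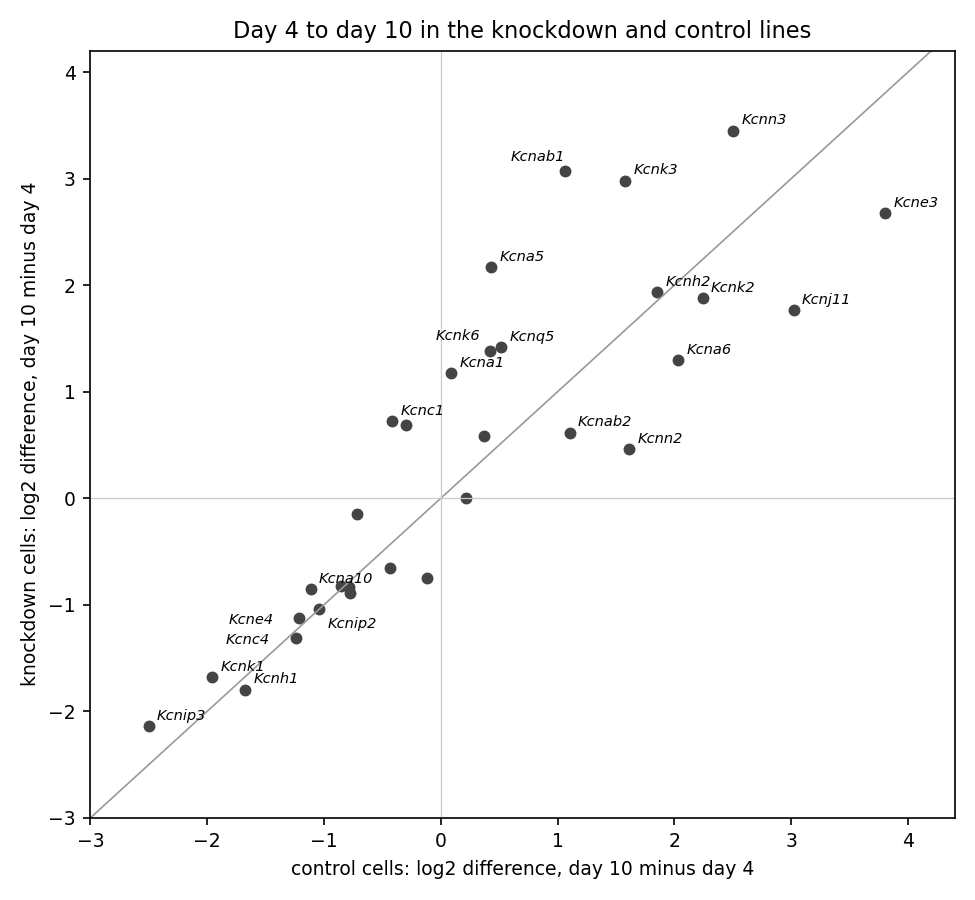
Log2 difference between day 10 and day 4 in knockdown cells (y axis) against that in control cells (x axis) for the 31 members past the filter in either line. Each point is 1 gene and the line marks equal differences. The members lower at day 10 lie near the line, while Kcnab1, Kcnk3 and Kcna5 lie above it and Kcnn2, Kcnj11 and Kcne3 below it.

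Other genes of the same machinery were counted beside the members. Of 17 partners of potassium channels without a Kcn symbol, 0 of 9 past the filter at day 4 and 0 of 8 at day 10 were 2-fold apart between knockdown and control cells. Of all genes past the filter, 0.804% were higher and 1.47% lower at day 4, and 2.50% and 3.61% at day 10. Below the filter, the partner Dpp6 was at 7.99 in knockdown and 9.15 in control cells at day 10 (-1.16). Cav3, the muscle caveolin, was at 10.73 in knockdown and 11.20 in control cells at day 10 and at the floor on the other 3 arrays. Of 41 measured sodium, calcium and pacemaker channel genes, 0 of 12 past the filter were 2-fold apart at day 4. At day 10, 0 of 15 were higher and 5 were lower in knockdown cells. The 5 were Cacna1c (11.23 in knockdown and 13.13 in control cells, -1.91), the pore of the cardiac L-type calcium channel, Cacna1d (8.03 and 9.73, -1.70), Cacna1h (13.19 and 14.58, -1.40), a T-type calcium channel, Cacna2d2 (11.83 and 13.17, -1.34), an auxiliary calcium channel subunit, and Scn7a (9.75 and 10.82, -1.07). Below the filter, Scn3b (-1.44) and Scn4b (-1.16) were past 2-fold lower, and Scn10a (1.20) and Scn2b (1.07) past 2-fold higher.

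Promoter windows from the RefSeq table of build GRCm38.p6 are shown for 4 of the 8 members that differed 2-fold between knockdown and control cells. These are Kcnc1 from day 4 and Kcna5, Kcnab1 and Kcne3 from day 10. Kcna1, Kcnk3 and Kcnj11 had no entry, Kcnn2 is not shown, and member windows on 1 chromosome were left out. Each window shown runs from 250 bases before to 50 bases after the first start listed for the gene, 5′ to 3′ on the strand of the gene. Which of the 3 listed starts of Kcnab1 or the 2 of Kcne3 the cells used was not measured. Capitals mark matches on either strand to TCACAC, the half-site of T-box factors such as Eomes, to AGATAA, which factors such as Gata4 bind, or to CATTCC, which TEAD factors bind in muscle genes.
Kcnc1, chr7:46396218-46396517 (+ strand): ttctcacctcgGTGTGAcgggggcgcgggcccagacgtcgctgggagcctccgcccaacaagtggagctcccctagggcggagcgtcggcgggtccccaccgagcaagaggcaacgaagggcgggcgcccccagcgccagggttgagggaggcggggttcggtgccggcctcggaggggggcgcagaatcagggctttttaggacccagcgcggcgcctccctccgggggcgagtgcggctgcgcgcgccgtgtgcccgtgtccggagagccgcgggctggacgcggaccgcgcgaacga
Kcna5, chr6:126535506-126535805 (- strand): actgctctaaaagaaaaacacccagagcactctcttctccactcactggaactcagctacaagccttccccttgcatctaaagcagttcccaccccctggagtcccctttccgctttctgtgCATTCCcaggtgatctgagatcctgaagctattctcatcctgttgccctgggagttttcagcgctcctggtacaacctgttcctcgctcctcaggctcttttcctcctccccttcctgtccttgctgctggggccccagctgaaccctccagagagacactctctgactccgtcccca
Kcnab1, chr3:64948962-64949261 (+ strand): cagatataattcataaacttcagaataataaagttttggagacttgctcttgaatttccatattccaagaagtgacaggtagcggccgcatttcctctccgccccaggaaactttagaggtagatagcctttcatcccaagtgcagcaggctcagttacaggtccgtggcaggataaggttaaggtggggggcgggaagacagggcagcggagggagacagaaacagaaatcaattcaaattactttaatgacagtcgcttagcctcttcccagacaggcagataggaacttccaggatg
Kcne3, chr7:100176420-100176719 (+ strand): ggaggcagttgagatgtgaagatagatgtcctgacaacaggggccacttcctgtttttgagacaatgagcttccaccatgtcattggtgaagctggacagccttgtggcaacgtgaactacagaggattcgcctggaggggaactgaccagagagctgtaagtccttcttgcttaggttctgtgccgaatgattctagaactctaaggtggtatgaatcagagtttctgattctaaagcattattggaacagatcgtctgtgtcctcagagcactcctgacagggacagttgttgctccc
Kcnc1, the gene lower at day 4, had the T-box letters on the reverse strand, beginning at base -239 relative to its start, and 41 CpG dinucleotides in the window. Kcna5 had the TEAD letters beginning at base -128, and Kcnab1 and Kcne3 had none of the 3 motifs in these windows. Of all 32851 RefSeq windows, 14.5% held TCACAC, 11.2% AGATAA and 14.7% CATTCC. Of 92 windows of 67 members, 19 held TCACAC (20.7%), 4 held AGATAA (4.35%) and 14 held CATTCC (15.2%). The member windows leave out 1 chromosome that the windows of all genes include. Several windows belong to 1 gene, and a match says only that these letters stand there.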

How the data were processed

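Total RNA of 5 mouse cultures was amplified, labelled with Cy5 and hybridised to 1 array per group, per the labels' protocols. The authors deposited 1 intensity per probe, unlogged, made with Agilent Feature Extraction 10.7.1.1 per the submitters' processing notes. Their normalization, if any, is not stated in the labels. Medians of the deposited intensities ran from 344 to 745 over the arrays and 0 to 1050 probes per array were at or below 0, so the arrays were not on a common scale. Here they were quantile normalized on the linear scale, floored at 100 and converted to log2. On every array about 19% of probes lay at the floor, where differences are bounds.

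Of 26423 probes, 20377 carried a gene symbol, updated through a gene table of assembly GRCm38.p6 (18213 by current symbol, 2126 by synonym, 38 kept). The brightest probe stood for a gene. Among the members 11 had more than 1 probe and 77 had 1. The pipeline was tested on simulated data with known changes, using Python 3.11.15, numpy 2.4.6, pandas 2.3.3 and scipy 1.17.1. The between-probe SD used the 2 brightest probes of each gene past the filter.

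Members, classes and lists were chosen with earlier results of these data known. Genes named with every array's value were those 2-fold apart between lines, the 5 highest and 5 lowest in each control time comparison, the 3 brightest of a class and a list of cardiac current genes, 41 in all. Other members were named from counts after their values were seen. Alternatives were the values as deposited, scaling to the 75th percentile, no filter at all, a stricter filter (75th percentile), floors of 50 and 200 and the mean of all probes. The number of arrays limits the precision, and detection or saturation marks were not used here.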

Additional observations from a re-analysis of the deposited data

Results flagged for a closer look

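Kcnab1 and Kcnk3 are given here because they were at least 2-fold apart between lines at day 10 and lay beyond the between-probe SD on the other side at day 4. Kcna5 (-0.02 and 1.72), Kcna1 (-0.03 and 1.06) and Kcnn2 (0.14 and -1.01) also had opposite signs on the 2 days, within that SD at day 4. That SD came from probes past the filter. Kcnab1, Kcnk3, Kcna5 and Kcna1 were below the filter on both day 4 arrays, so the SD does not measure their error there. Kcnab1 was at 8.21 in knockdown and 8.49 in control cells at day 4 (-0.28) and at 11.28 and 9.56 at day 10 (1.73). Kcnk3 was at the floor in knockdown cells and at 7.0 in control cells at day 4 (-0.36 as a bound, both arrays below the filter) and at 9.63 and 8.58 at day 10 (1.05). With 1 array per group the difference between the days was not tested.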

How the results depend on the processing

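No paired analysis was possible because each group held 1 array. Of the 15 counts and medians, those not given here stayed within 1.5 times (counts) or within the between-probe SD (medians) under each alternative tried. With values as deposited, where the median of all genes shifted by 0.20 and 0.37 between lines at day 4 and day 10, by 0.17 from ESCs to control day 4 and by -0.72 and -0.58 from day 4 to day 10 in control and knockdown cells, the counts of higher and lower members were 8 and 0 for knockdown against control at day 10, 4 and 17 for control day 10 against day 4, and 7 and 16 for the knockdown course. Centred on that median, a setting chosen after seeing the data, 1 member was lower in knockdown cells at day 10, the median of the members there was -0.32, and 5 members were higher in control cells at day 10 than at day 4. Scaling to the 75th percentile gave 12 lower members for control day 4 against ESCs. Without the filter, which admits more dim probes, 2 members were lower in knockdown cells at day 4 and 5 at day 10, 12 were lower in control day 4 cells than in ESCs, and 13 were higher in control cells at day 10 than at day 4. A filter at the 75th percentile left 2 to 5 members per comparison, with 0 lower in knockdown cells at day 4, 0 higher and 1 lower at day 10, 1 higher and 3 lower for control day 4 against ESCs, 2 and 2 for the control course and 1 and 2 for the knockdown course. With the mean of all probes, the day 10 difference between lines of Kcnj11 was -0.67 and Kcna5, at 1.60, came below the filter. No called member changed sign under any of these settings. Signal near the floor limits what can be said of the 55 members that passed the filter on no array.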
